A study of Mus musculus with 6 samples.

Results

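The 67 genes described here encode Wnt ligands, the proteins that secrete them, their receptors and the regulators of the pathway, and they were chosen by gene symbol alone from the 22401 rows of a read count table. By role they were 19 Wnt ligands, 2 genes of ligand secretion (Wls and Porcn), 12 Frizzled and low-density lipoprotein receptor-related (Lrp) receptors, 7 R-spondin and Lgr genes, 2 receptor-removing ubiquitin ligases, 10 secreted inhibitors, 5 Dishevelled and Naked genes, 5 destruction complex genes, and 5 genes of β-catenin and the TCF/LEF factors. The RNA came from 4T1, a mouse mammary carcinoma cell line. Cells received either DMSO, the vehicle, or P3FI-90 at 10 µM, a compound that the study uses as an inhibitor of the histone demethylase KDM3B, and were collected after 24 h. Each group had 3 RNA-seq libraries. All libraries came from a single cell line in culture, in a medium for which no added Wnt ligand is named, and the study says in general terms that its experiments were repeated independently. No label says whether these replicates were separate cultures, so p-values measure the spread between these libraries, part or all of which may be technical.

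Wnt proteins are secreted lipid-modified ligands that bind a Frizzled receptor together with the co-receptor Lrp5 or Lrp6. Without a ligand, a destruction complex built on Axin and Apc lets the kinase Gsk3 mark β-catenin for degradation. When a ligand binds, Dishevelled recruits Axin to the receptor, β-catenin accumulates, enters the nucleus and acts with TCF/LEF factors on target genes, several of which encode feedback inhibitors such as Axin2, Notum, Rnf43 and Znrf3. In mammary epithelium the pathway is known for its part in branching, stem cell maintenance and tumour formation. RNA levels do not measure β-catenin protein, its location or its activity.

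Libraries held between 31327094 and 37395732 counts on named genes. Per-gene values are given as normalized counts, obtained by scaling each library to the average effective size, and levels of different genes are compared only as normalized counts per kilobase of summed exon length. The epithelial markers Epcam, Krt8, Krt18, Krt19, Cdh1 and Krt14 were present in every library. All 6 had a lower level with P3FI-90, with a summed level of 111937 to 117886 normalized counts in DMSO and of 55217 to 57832 in P3FI-90. Leukocyte markers summed to between 0 and 45.5 normalized counts in DMSO and between 8.99 and 28.1 in P3FI-90 over 6 genes, with Adgre1 at 0 in every library. Fibroblast markers summed to between 1411.5 and 1450.1 in DMSO and between 1001 and 1096 in P3FI-90 over 6 genes, nearly all of it from Pdgfra, with Lum at 0. Endothelial markers summed to at most 13.3 in DMSO and to between 21.6 and 35.3 in P3FI-90 over 5 genes. The part of these shifts in the results that follow was not tested. In bulk RNA, fewer cells that express a gene and less RNA of it per cell cannot be told apart. Kdm3b itself had a mean of 2851 ± 67.4 normalized counts in DMSO and 3109 ± 55.7 in P3FI-90 (SD, n = 3). An enzyme inhibitor is not expected to remove the transcript of its target, so this value does not check the labels.

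Of the 67 genes, 40 had enough counts to be tested, 14 were detected below the filter on low counts, and 13 were at 0 in every library. P3FI-90 was compared with DMSO by the quasi-likelihood test of edgeR, with Benjamini-Hochberg adjustment over all 12288 genes tested. At an adjusted p under 0.05, called here, 16 of the 40 were higher with P3FI-90 (40%) and 13 were lower (32.5%), while 39.9% of all genes tested were called higher and 39.4% lower. In either direction 29 of the 40 were called (72.5%), against 79.3% of all genes, so the share of Wnt pathway genes that changed lay near the background. At a log2 fold change of at least 1, Wnt11, Wnt9a and Dvl2 were higher (7.5%, against 12.7% of all genes). At a log2 fold change of at most -1, Fzd9, Fzd2, Sfrp1, Tcf7, Wnt5b and Fzd7 were lower (15%, against 10.6% of all genes). The 3 P3FI-90 libraries did not overlap the 3 DMSO libraries for 29 of the 40 genes (72.5%), against 81.2% of all genes. The median log2 fold change was 0.024 over the 40 genes and 0.013 over all genes tested. Scaling by total counts instead of edgeR's TMM method shifted all genes up to a median of 0.23 and the members to 0.24. With total counts 22 members were called higher and 10 lower. Among all genes, too, more were then called higher than lower, so this imbalance was not particular to the members. Fold changes below are therefore relative to the TMM centre, and those within about that shift depend on the scaling. In an exact permutation test of a single gene, 3 libraries against 3 cannot give a p below 0.1.

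**Figure D1:**
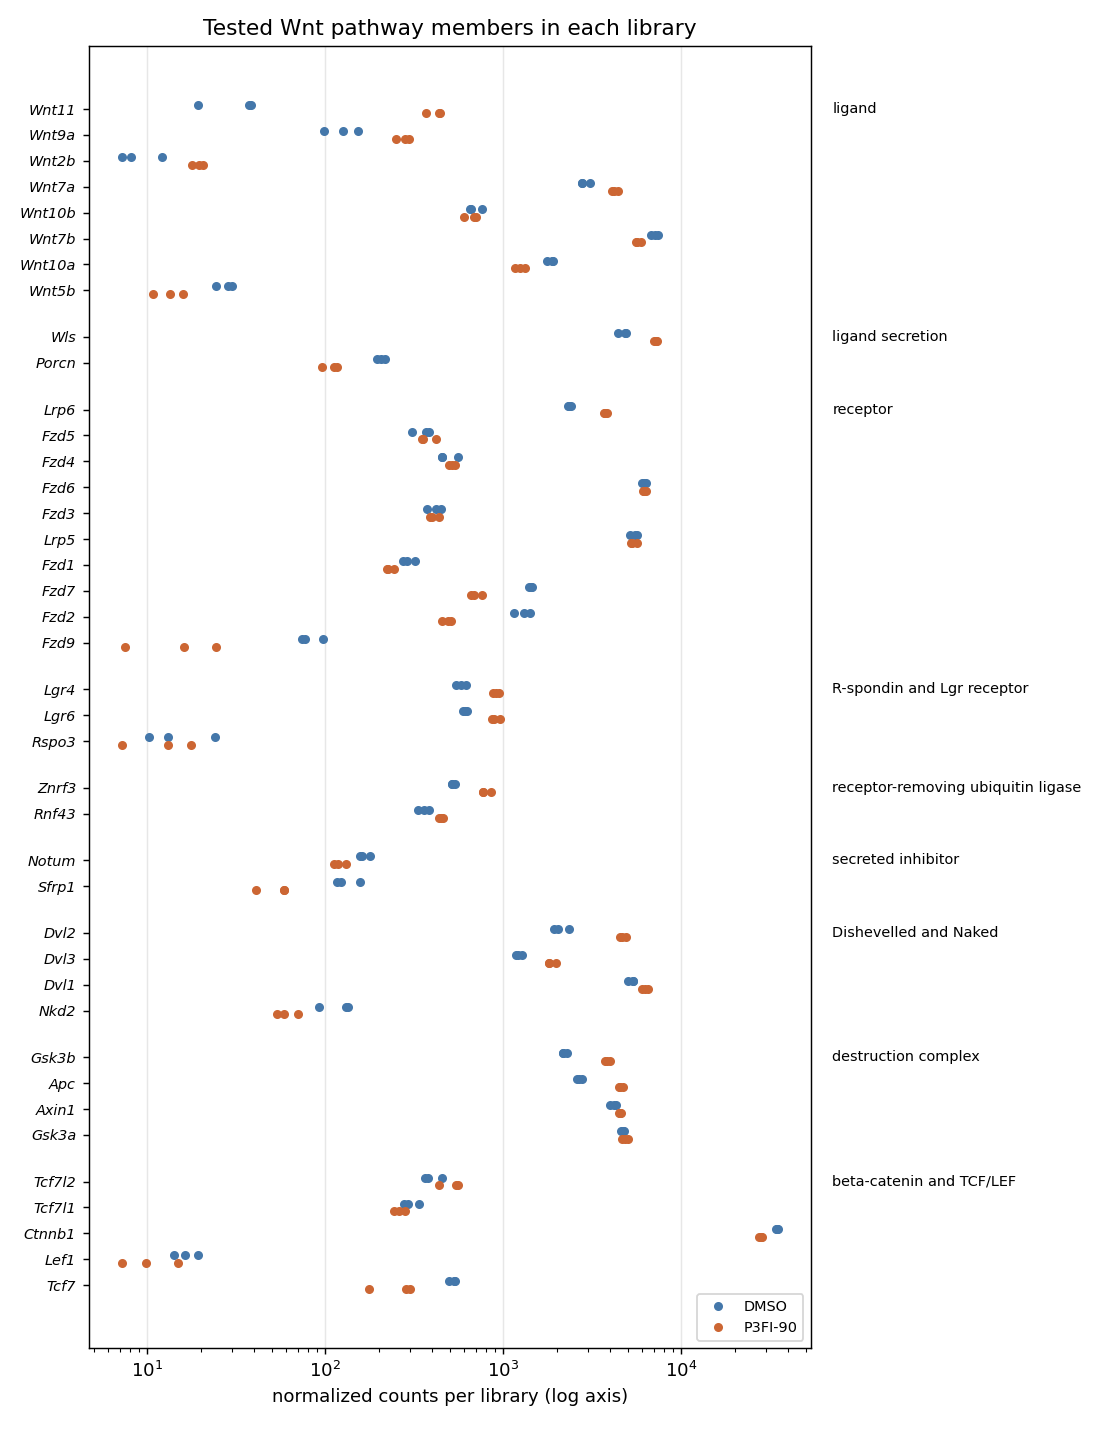
Normalized counts of the tested Wnt pathway genes in each of the 6 libraries, on a log axis and ordered by role, with 1 dot per library and a colour per treatment. The P3FI-90 dots of Wnt11 (370.5 to 444.5) lie far above the DMSO dots (19.4 to 38.5), those of Fzd9 and Fzd2 lie below, and those of Fzd6 and Gsk3a mix with them.

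Among the ligands, 8 of the 19 genes were tested, of which 3 rose, 3 fell and 2 were not called. The background for this and the counts by role below was 39.9% of all genes called higher and 39.4% called lower. Wnt11, a ligand best known for β-catenin-independent signalling in cell movement, had 37.4, 38.5 and 19.4 normalized counts in DMSO replicates 1 to 3 and 444.5, 370.5 and 436.9 in P3FI-90 replicates 1 to 3. All P3FI-90 libraries were far above all DMSO libraries, by a log2 fold change of 3.72 (SE 0.21, edgeR adjusted p = 8.55e-10), or 13.2-fold. This was the largest fold change among the 40 genes, and over the alternative settings it ranged from 2.77 to 3.93. Annotated exons of an opposite-strand gene, Gm8398, cover 10.1% of the exon length of Wnt11. Wnt9a, a ligand that can act through β-catenin, had 98.2, 125 and 153 normalized counts in DMSO and 281, 249.1 and 295.8 in P3FI-90, in replicate order. The groups were clear of each other, with a log2 fold change of 1.13 (SE 0.17, edgeR adjusted p = 3.56e-05). Wnt7a rose from a range of 2772 to 3079 to a range of 4107 to 4396 normalized counts, and its log2 fold change was 0.56 (SE 0.050, edgeR adjusted p = 1.25e-07).

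The ligands that fell were Wnt7b, Wnt10a and Wnt5b. Wnt7b, the ligand with the highest level in DMSO, fell from 6807 to 7370 normalized counts to 5582 to 5983, a log2 fold change of -0.31 (SE 0.040, edgeR adjusted p = 7.17e-06). Wnt10a, a ligand of the β-catenin branch known in skin, tooth and hair development, fell from 1762 to 1908 to 1173 to 1324, a log2 fold change of -0.57 (SE 0.059, edgeR adjusted p = 5.93e-07). Both falls stood in every alternative setting, but with a trend of fold change on gene length and GC content removed they shrank to -0.12 for Wnt7b and -0.31 for Wnt10a. Wnt5b, a ligand of β-catenin-independent signalling, had 28.3, 30.1 and 24.5 normalized counts in DMSO and 15.9, 13.5 and 10.8 in P3FI-90. Its log2 fold change was -1.03 (SE 0.42, edgeR adjusted p = 0.0346), and the call was lost in 11 of 16 alternative settings, including each of the 6 that left out a library (adjusted p of 0.0548 to 0.114).

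Wnt10b, a neighbour of Wnt1 in the genome with a known role in mammary gland growth, had 653 to 759 normalized counts in DMSO and 603 to 701 in P3FI-90 and was not called (log2 fold change -0.06, SE 0.09, edgeR adjusted p = 0.570). Wnt2b had 7.23 to 12.1 in DMSO and 18.0 to 20.6 in P3FI-90. The groups did not overlap, but the log2 fold change of 1.06 (SE 0.48) missed the threshold (edgeR adjusted p = 0.0567), which 4 alternative settings passed.

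A further 6 ligands were detected below the filter. Lower bounds and intervals for such genes cover counting error only, and the bounds are set against a floor of 3 counts over the group, or of 6 counts in case both mates of a pair were counted. The intervals take each count as independent and are too narrow if both mates were counted. Wnt5a, the ligand most studied in β-catenin-independent signalling, had raw counts of 6, 2 and 2 in DMSO and of 2, 4 and 8 in P3FI-90. The ratio of P3FI-90 to DMSO was 1.22, with an exact Clopper-Pearson 95% interval of 0.506 to 3.08, so a change was not detectable at this depth. Wnt16 had raw counts of 0, 2 and 0 in DMSO and of 10, 0 and 5 in P3FI-90, a ratio of 6.56 (interval 1.52 to 59.1) with a P3FI-90 library at 0. Both DMSO counts of Wnt16 came from replicate 2, and without that library the level was at least 3.07-fold higher with P3FI-90, or at least 1.54-fold if the floor is 6 counts. Wnt1, Wnt4, Wnt6 and Wnt8a had at most 6 counts over all libraries. Wnt2, Wnt3, Wnt3a, Wnt8b and Wnt9b were at 0 in all libraries, so the classical mammary ligands Wnt1 and Wnt3 were at or near 0 in these cells.

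Per kilobase of exon, the ligand levels in DMSO ran from Wnt7b (1543 normalized counts per kb) through Wnt7a (907), Wnt10a (749) and Wnt10b (203) to Wnt9a (37.7), Wnt5b (10.4), Wnt11 (8.80) and Wnt2b (2.77). In P3FI-90 Wnt7a came first with 1334, above Wnt7b with 1247, and Wnt11 (115.5) had passed Wnt9a (82.7). As a share of all ligand signal per kb, Wnt7b made up 44.6% ± 0.62 in DMSO and 35.7% ± 1.26 in P3FI-90, and Wnt7a 26.2% ± 1.38 and 38.2% ± 0.99 (SD, n = 3). Wnt7a was above Wnt7b in each P3FI-90 library and below it in each DMSO library. Wnt10a went from 21.6% ± 0.22 to 14.5% ± 1.09 and Wnt11 from 0.256% ± 0.091 to 3.30% ± 0.27. Summed over the ligands, the signal per kb was 3462 ± 123.4 in DMSO and 3493 ± 53.7 in P3FI-90, a ratio of 1.01. Under TMM scaling, the total of ligand RNA thus differed by less than the spread between replicates while its composition differed. Such sums, here and for the families below, move with the scaling, and total counts would shift them up with P3FI-90. Shares within a library do not move with it.

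**Figure D2:**
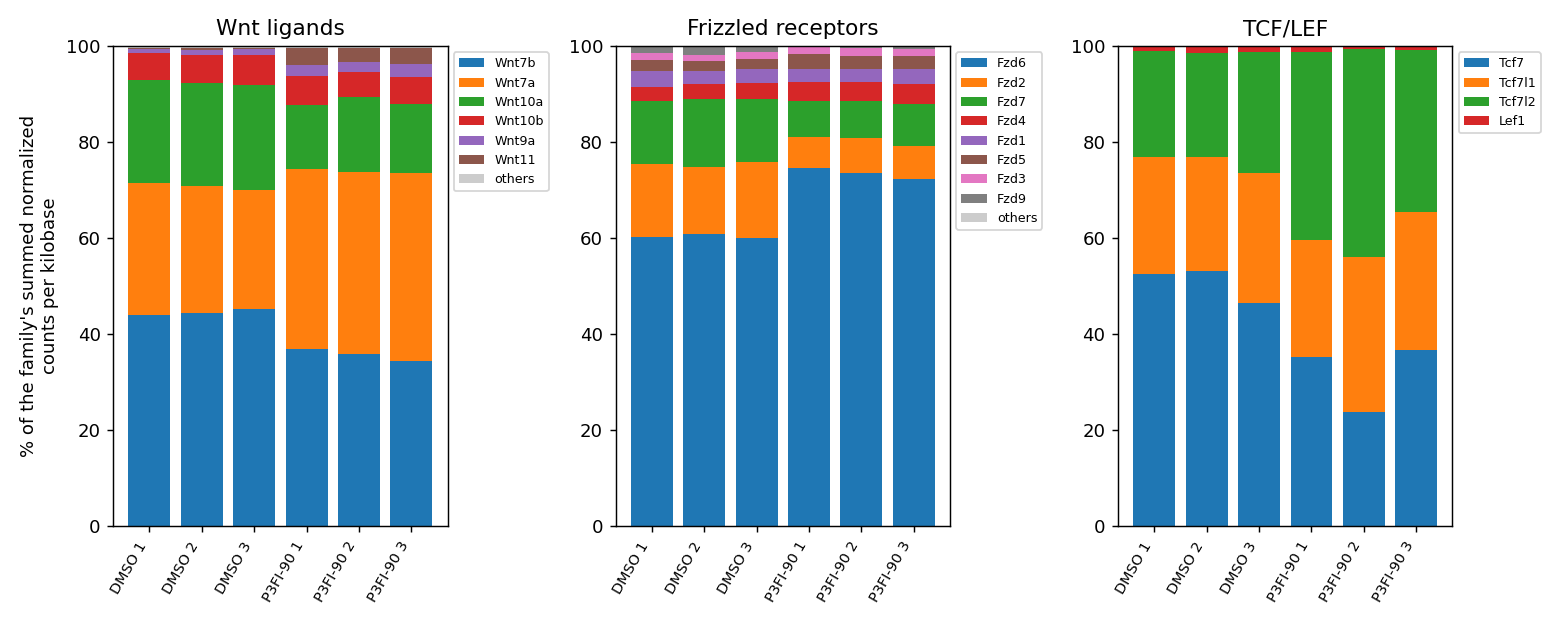
Share of the summed normalized counts per kilobase of each gene family taken by its members, as stacked bars in percent for each of the 6 libraries, for Wnt ligands, Frizzled receptors and TCF/LEF factors. Wnt7a overtakes Wnt7b, Fzd6 grows from 60.4% to 73.5% of Frizzled signal, and Tcf7 shrinks from 50.7% to 31.9% of TCF/LEF signal (means).

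Several members are known to respond to TCF/LEF factors themselves, whose DNA-binding core can be written CTTTGA. Promoter sequences in the RefSeq table, on build GRCm38.p6, matched 45 of the 67 genes with 55 promoters. The counts, by the submitters' processing notes, come from build GRCm39, so the coordinates below belong to the RefSeq table alone. The 4 windows shown hold the 250 bases before an annotated start, 5′ to 3′ on the strand of the gene. They are for Wnt11 and Wnt5b, the members with a promoter that held the longer form CTTTGAT, for Gsk3b, a called member with the core only, and for Axin2, the textbook target, without a match. Wnt11 and Wnt5b each have further promoters in the RefSeq table, without a match. Which promoter these cells use was not tested. Capitals mark the match, in either orientation.
Wnt11, chr7:98834862-98835111, plus strand: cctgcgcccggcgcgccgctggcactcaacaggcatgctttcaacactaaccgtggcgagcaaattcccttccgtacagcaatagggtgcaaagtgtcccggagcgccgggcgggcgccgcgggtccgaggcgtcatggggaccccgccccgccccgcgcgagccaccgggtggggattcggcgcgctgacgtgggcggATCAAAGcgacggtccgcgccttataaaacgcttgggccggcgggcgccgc
Wnt5b, chr6:119449387-119449636, minus strand: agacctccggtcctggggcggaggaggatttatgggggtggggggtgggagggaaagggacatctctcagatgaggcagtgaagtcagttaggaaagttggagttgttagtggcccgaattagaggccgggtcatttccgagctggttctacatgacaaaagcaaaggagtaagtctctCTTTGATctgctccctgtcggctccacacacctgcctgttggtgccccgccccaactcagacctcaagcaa
Gsk3b, chr16:38088751-38089000, plus strand: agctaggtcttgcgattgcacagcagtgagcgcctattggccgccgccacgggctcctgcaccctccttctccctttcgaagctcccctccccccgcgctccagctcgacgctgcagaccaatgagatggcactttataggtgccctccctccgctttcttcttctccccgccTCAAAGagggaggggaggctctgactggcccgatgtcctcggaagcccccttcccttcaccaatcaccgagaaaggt
Axin2, chr11:108920099-108920348, plus strand: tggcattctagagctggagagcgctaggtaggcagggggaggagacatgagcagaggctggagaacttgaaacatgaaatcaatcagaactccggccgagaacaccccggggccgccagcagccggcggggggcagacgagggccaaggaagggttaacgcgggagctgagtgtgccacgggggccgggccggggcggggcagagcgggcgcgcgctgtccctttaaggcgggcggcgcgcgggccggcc

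In the GRCm38 gene annotation, the windows of Wnt11, Gsk3b and Axin2 overlapped no exon and no transcript, and the Wnt5b window lay in introns of 3 longer Wnt5b transcripts. In the Wnt11 window the core began 50 bases before the start and read on the reverse strand. In the Wnt5b window it began 71 bases before the start and in the Gsk3b window 77 bases. Over windows of 300 bases, which reach past the start, the core on either strand was in 7 of the 55 member promoters (12.7%), against 16% of 32851 promoters of all genes, and the longer form, each match of which also holds the core, was in 2 of 55 (3.64%), against 3.73%. The genes with the core were Dkk1, Fzd1, Gsk3a, Gsk3b, Lef1, Wnt11 and Wnt5b, of which Dkk1 was at 0 in every library and the others moved in both directions or were not called. A match describes letters only and shows neither binding nor regulation.

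Ligand secretion moved in both directions. Wls, the carrier that brings Wnt proteins to the cell surface, had 4428, 4832 and 4880 normalized counts in DMSO and 7189, 7042 and 7349 in P3FI-90. Every P3FI-90 library was higher, with a log2 fold change of 0.61 (SE 0.041, edgeR adjusted p = 6.13e-09). Porcn, the acyltransferase that adds the lipid Wnt proteins need for secretion, had 196, 205 and 216 in DMSO and 96.4, 117 and 112 in P3FI-90, a log2 fold change of -0.93 (SE 0.16, edgeR adjusted p = 1.38e-04). Within a library there were 0.0437 ± 0.0011 Porcn counts per Wls count in DMSO and 0.0151 ± 0.0016 in P3FI-90 (SD, n = 3), a ratio that scaling does not touch.

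Of the 12 receptor genes, 10 were tested, of which 1 rose, 4 fell and 5 were not called, and Fzd8 and Fzd10 were at 0 in every library. The gene that rose was Lrp6, the co-receptor to which Axin is recruited when a ligand binds, with 2417, 2347 and 2322 normalized counts in DMSO and 3814, 3720 and 3707 in P3FI-90. The groups were well apart, with a log2 fold change of 0.67 (SE 0.043, edgeR adjusted p = 3.42e-09), which fell to 0.22 with the length and GC trend removed. Lrp5, its close relative, had 5493, 5176 and 5673 in DMSO and 5215, 5634 and 5275 in P3FI-90, and the groups overlapped (log2 fold change -0.02, SE 0.043, edgeR adjusted p = 0.683). The sign for Lrp5 turned under total-count scaling (0.19). Within a library there were 0.434 ± 0.023 Lrp6 counts per Lrp5 count in DMSO and 0.698 ± 0.036 in P3FI-90.

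The 4 receptors that fell were all Frizzled genes. Fzd9, a Frizzled of low level in these cells, had 76.9, 97.6 and 74.5 normalized counts in DMSO and 7.49, 16.2 and 24.5 in P3FI-90. Its log2 fold change was -2.36 (SE 0.37, edgeR adjusted p = 4.51e-05), and it was -1.22 with limma on log2(CPM + 1), a scale that understates the change of low genes. Fzd2, which can bind ligands of both branches, had 1304, 1156 and 1414 in DMSO and 455, 513 and 493 in P3FI-90, a log2 fold change of -1.41 (SE 0.085, edgeR adjusted p = 1.67e-09). Fzd7, a Frizzled often studied in epithelial stem cells and carcinoma, had 1404, 1457 and 1427 in DMSO and 659, 684 and 761 in P3FI-90. The log2 fold change of Fzd7 was -1.03 (SE 0.068, edgeR adjusted p = 4.76e-09). For these 3 genes no P3FI-90 library reached the lowest DMSO library. Fzd1 was lower by a smaller amount, with 273 to 320 in DMSO and 222 to 245 in P3FI-90 (log2 fold change -0.35, SE 0.13, edgeR adjusted p = 0.0212). That call was lost without DMSO replicate 1 (adjusted p = 0.0893), without P3FI-90 replicate 1 (0.0571) and under total-count scaling (0.341).

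Fzd6, a Frizzled known for tissue polarity, was the receptor with the highest level, with 6021 to 6378 normalized counts in DMSO and 6087 to 6369 in P3FI-90. The groups overlapped, with a log2 fold change of 0.0064 (SE 0.036, edgeR adjusted p = 0.875), which was 0.22 under total-count scaling and -0.09 with the length and GC trend removed, both called. Fzd3, Fzd4 and Fzd5 were not called either, with log2 fold changes of -0.01, 0.08 and 0.09, each of which turned sign in some alternative setting. Per kb, Fzd6 (1415 in DMSO and 1421 in P3FI-90) stood above Fzd2 (353 and 133) and Fzd7 (315 and 155). Fzd6 took 60.4% ± 0.42 of the summed Frizzled signal per kb in DMSO and 73.5% ± 1.19 in P3FI-90, while Fzd2 went from 15.01% ± 0.98 to 6.87% ± 0.45 and Fzd7 from 13.5% ± 0.67 to 8.01% ± 0.66 (SD, n = 3). The Frizzled sum was 2344 ± 83.3 in DMSO and 1934 ± 12.8 in P3FI-90, a ratio of 0.825.

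**Figure D3:**
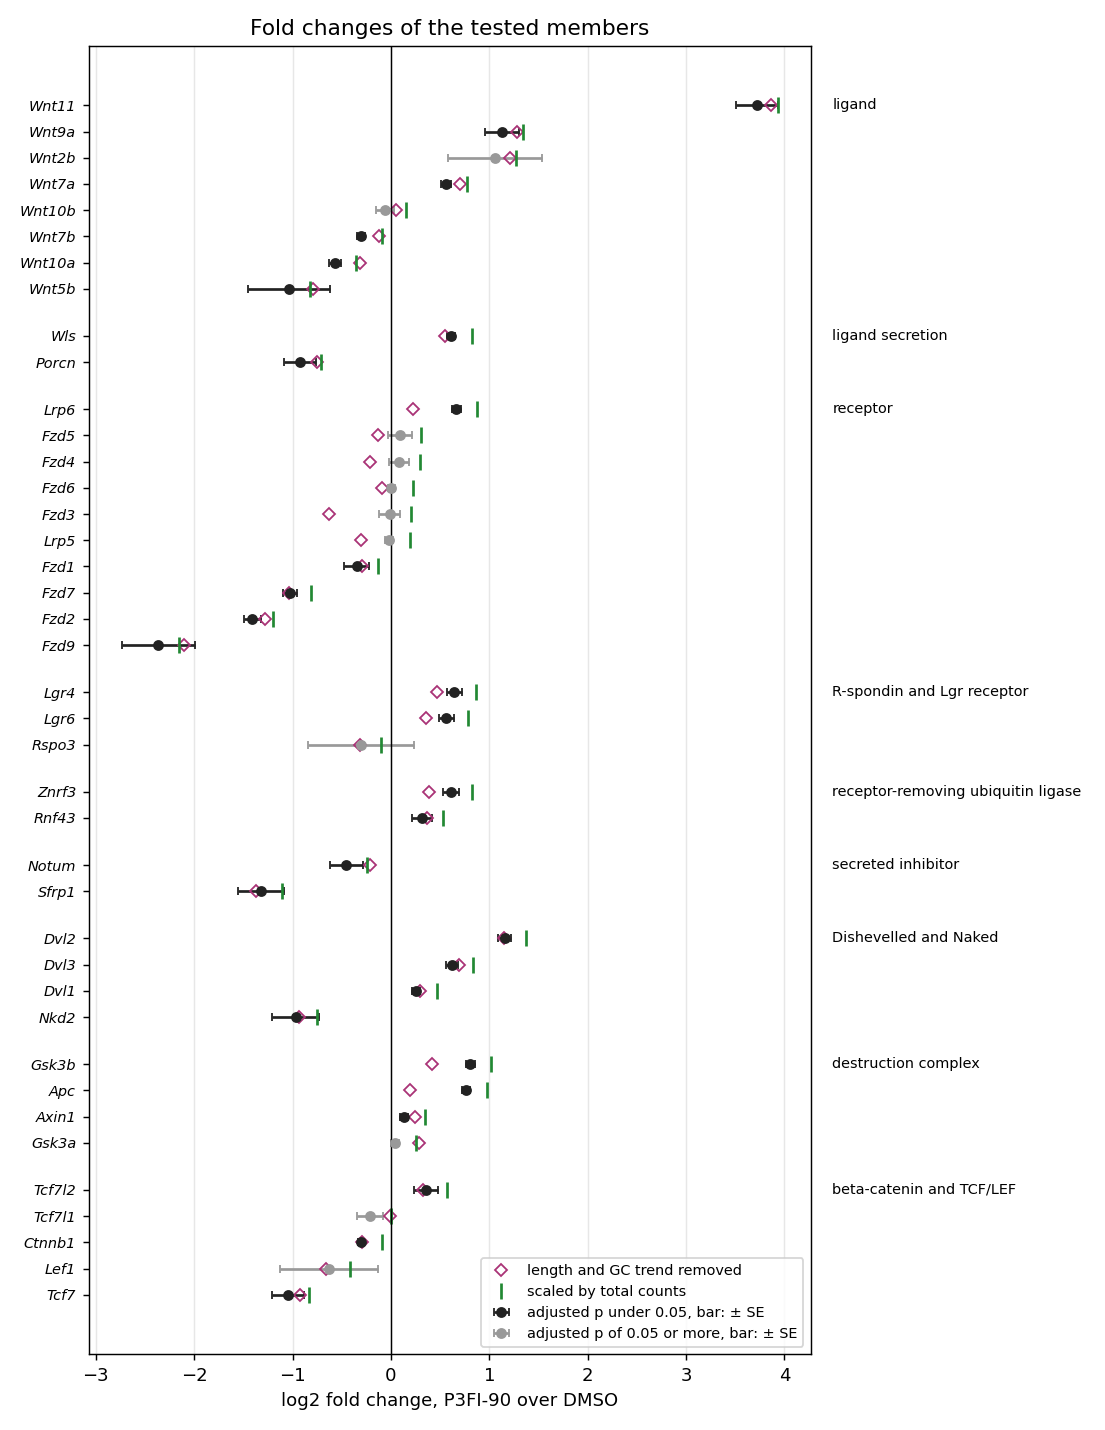
Log2 fold change of P3FI-90 over DMSO for the 40 tested Wnt pathway genes, with bars of 1 SE, black for called genes and grey for others. Open diamonds give the value with the trend on gene length and GC content removed and green ticks the value under total-count scaling, which moves all genes up, and Apc and Lrp6 show the diamonds well below the dots.

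R-spondins are secreted amplifiers of Wnt signalling that bind Lgr receptors and so draw the ubiquitin ligases Rnf43 and Znrf3 away from Frizzled. Of the 7 R-spondin and Lgr genes, 3 were tested, of which 2 rose, and 4 were below the filter. Lgr4, the broadly expressed R-spondin receptor, had 543 to 621 normalized counts in DMSO and 882 to 943 in P3FI-90, a log2 fold change of 0.65 (SE 0.077, edgeR adjusted p = 2.57e-06). Lgr6, a receptor that marks some epithelial progenitors, had 591 to 631 in DMSO and 868 to 954 in P3FI-90, a log2 fold change of 0.57 (SE 0.073, edgeR adjusted p = 6.45e-06). Rspo3, the tested R-spondin, had a mean of 15.8 ± 7.31 normalized counts in DMSO and 12.6 ± 5.24 in P3FI-90 (SD, n = 3) and was not called (log2 fold change -0.31, edgeR adjusted p = 0.608). Lgr5, a stem cell marker of the gut, Rspo1, Rspo2 and Rspo4 had 0 counts in DMSO and 2 to 4 in P3FI-90, each from a single library.

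Both ubiquitin ligases that remove Frizzled from the membrane rose. Rnf43 had 361, 334 and 384 normalized counts in DMSO and 439, 460 and 449 in P3FI-90, a log2 fold change of 0.32 (SE 0.10, edgeR adjusted p = 0.00955). Znrf3 had 513, 518 and 534 in DMSO and 770, 855 and 767 in P3FI-90, a log2 fold change of 0.61 (SE 0.079, edgeR adjusted p = 6.29e-06). Neither pair of groups overlapped, and with the length and GC trend removed the values were 0.37 for Rnf43 and 0.39 for Znrf3.

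Secreted inhibitors were scarce. Of the 10 genes, 2 were tested and fell, 3 were below the filter, and Dkk1, Dkk3, Sfrp2, Sfrp4 and Wif1 were at 0 in every library. Sfrp1, a Frizzled-like decoy that binds Wnt proteins, had 124, 117 and 156 normalized counts in DMSO and 59.0, 58.4 and 41.1 in P3FI-90. All P3FI-90 libraries were lower, with a log2 fold change of -1.32 (SE 0.24, edgeR adjusted p = 1.45e-04). Notum, the enzyme that strips the lipid from Wnt proteins, had 157 to 178 in DMSO and 112 to 131 in P3FI-90, a log2 fold change of -0.45 (SE 0.17, edgeR adjusted p = 0.0247). The Notum call was lost under total-count scaling, with the length and GC trend removed, and without DMSO replicate 1 (adjusted p = 0.0842), P3FI-90 replicate 1 (0.0733) or P3FI-90 replicate 3 (0.0504). Exons of opposite-strand genes cover 38.3% of its exon length, and how strand was treated in counting is not given in the sources used here. Dkk2, an inhibitor that binds Lrp5 and Lrp6, had 7 counts, all in P3FI-90 replicate 1, and Dkk4 and Sfrp5 had at most 3.

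Dishevelled proteins carry the signal from Frizzled into the cell, and all 3 genes rose. Dvl2 had 1939, 2027 and 2354 normalized counts in DMSO and 4924, 4658 and 4507 in P3FI-90. The lowest P3FI-90 library was far above the highest DMSO library, with a log2 fold change of 1.16 (SE 0.064, edgeR adjusted p = 6.91e-10). Exons of other genes, mainly Acadvl on the opposite strand, cover 21.1% of the exon length of Dvl2, and Acadvl itself had a log2 fold change of -0.36. Whether reads of overlapping genes entered the Dvl2 counts was not tested. Dvl3 had 1206, 1176 and 1269 in DMSO and 1813, 1984 and 1817 in P3FI-90, a log2 fold change of 0.62 (SE 0.057, edgeR adjusted p = 1.70e-07). Dvl1 had 5381, 5046 and 5377 in DMSO and 6506, 6066 and 6292 in P3FI-90, a log2 fold change of 0.26 (SE 0.040, edgeR adjusted p = 3.89e-05). The 3 genes kept their order per kb, but Dvl1 went from 69.1% ± 1.46 to 57.8% ± 1.10 of the Dishevelled signal per kb and Dvl2 from 18.3% ± 1.39 to 28.6% ± 0.65 (SD, n = 3). The Dishevelled sum per kb was 2272 ± 92.4 in DMSO and 3242 ± 83.2 in P3FI-90, a ratio of 1.43.

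The Naked genes encode inhibitors that bind Dishevelled. Nkd2 had 91.9 to 135 normalized counts in DMSO and 54.0 to 70.2 in P3FI-90, a log2 fold change of -0.97 (SE 0.24, edgeR adjusted p = 0.00188). Nkd1, a textbook Wnt target, was at 0 in every library.

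Of the 5 destruction complex genes, 3 rose, 1 was not called and Axin2 was below the filter. Apc, the large scaffold of the complex and a tumour suppressor, had 2765, 2610 and 2663 normalized counts in DMSO and 4449, 4543 and 4692 in P3FI-90. Its groups were wide apart, with a log2 fold change of 0.77 (SE 0.042, edgeR adjusted p = 6.05e-10), and this value shrank to 0.19 (adjusted p = 8.32e-04) with the length and GC trend removed. Gsk3b, a kinase that phosphorylates β-catenin, had 2162, 2164 and 2277 in DMSO and 3717, 3842 and 4005 in P3FI-90, a log2 fold change of 0.81 (SE 0.047, edgeR adjusted p = 1.10e-09). With the trend removed it was 0.41.

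Gsk3a, the related kinase, had 4789, 4727 and 4600 normalized counts in DMSO and 4624, 5046 and 4850 in P3FI-90, with overlapping groups (log2 fold change 0.04, SE 0.040, edgeR adjusted p = 0.353). Gsk3a had the higher level per kb of the pair, 2082 in DMSO and 2142 in P3FI-90, against 264 and 462 for Gsk3b. Exons of an opposite-strand gene, 9130221H12Rik, cover 19.3% of the exon length of Gsk3a, and no other gene's exons overlap those of Gsk3b. Axin1, the scaffold that holds the complex together, had 4185, 3968 and 4292 in DMSO and 4491, 4564 and 4586 in P3FI-90. The difference was small and its groups did not overlap (log2 fold change 0.13, SE 0.039, edgeR adjusted p = 0.00657).

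Axin2, the textbook feedback target of β-catenin in most tissues, was close to the detection limit. Its raw counts were 0, 0 and 2 in DMSO and 19, 10 and 11 in P3FI-90, and every P3FI-90 library was above every DMSO library. The ratio of P3FI-90 to DMSO was 17.5, with an exact Clopper-Pearson 95% interval of 4.53 to 149. Both DMSO counts came from replicate 3, and without that library Axin2 was at least 7.57-fold higher with P3FI-90, or at least 3.79-fold if the floor is 6 counts. Both bounds take the P3FI-90 counts as exact. The higher floor was used because genes with a count of 2 outnumbered those with a count of 1 in every library, so both mates of a pair may have been counted. In that case the interval given for Axin2 is too narrow.

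Ctnnb1, which encodes β-catenin, had the highest level of the 67 genes, 9558 normalized counts per kb in DMSO and 7729 in P3FI-90. Its normalized counts were 34276, 34961 and 34645 in DMSO and 27949, 27433 and 28621 in P3FI-90. The spread within groups was small and the groups were apart, with a log2 fold change of -0.31 (SE 0.027, edgeR adjusted p = 1.25e-07), which was -0.09 and still called under total-count scaling.

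Of the 4 TCF/LEF factors, Tcf7 fell, Tcf7l2 rose, and Tcf7l1 and Lef1 were not called. Tcf7, the factor known as TCF1 in T cells, had 538, 530 and 495 normalized counts in DMSO and 299, 176 and 284 in P3FI-90. All P3FI-90 libraries were lower, with replicate 2 the lowest, and the log2 fold change was -1.04 (SE 0.16, edgeR adjusted p = 3.36e-05). Tcf7l2, known as TCF4 in gut epithelium, had 381, 366 and 454 in DMSO and 561, 541 and 437 in P3FI-90. DMSO replicate 3 was above P3FI-90 replicate 3, so the groups overlapped, with a log2 fold change of 0.36 (SE 0.12, edgeR adjusted p = 0.0140). The Tcf7l2 call was lost without DMSO replicate 1 (adjusted p = 0.0521), DMSO replicate 2 (0.0510) or P3FI-90 replicate 1 (0.0637).

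Tcf7l1, often a repressor, had a mean of 303 ± 32.2 normalized counts in DMSO and 262 ± 18.6 in P3FI-90 (SD, n = 3, log2 fold change -0.21, SE 0.13, edgeR adjusted p = 0.141). Lef1 had 14.2, 19.3 and 16.3 in DMSO and 14.97, 7.19 and 9.80 in P3FI-90, with overlapping groups (log2 fold change -0.63, SE 0.50, edgeR adjusted p = 0.260). Exons of an opposite-strand gene, Gm43352, cover 34.5% of the exon length of Lef1. Per kb, the order in DMSO was Tcf7 (199), Tcf7l1 (98.2), Tcf7l2 (90.4) and Lef1 (4.73), and in P3FI-90 Tcf7l2 (116) came first, ahead of Tcf7 (96.4) and Tcf7l1 (84.8). Tcf7 took 50.7% ± 3.70 of the TCF/LEF signal per kb in DMSO and 31.9% ± 7.09 in P3FI-90, and Tcf7l2 23.0% ± 1.96 and 38.7% ± 4.89 (SD, n = 3). In P3FI-90 replicate 3 Tcf7 (36.8%) was above Tcf7l2 (33.5%), so the order of these factors was not the same in all P3FI-90 libraries. The TCF/LEF sum was 392 ± 13.0 in DMSO and 300.0 ± 21.1 in P3FI-90, a ratio of 0.766.

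Ratios of related members within a library do not depend on how libraries are scaled, and 11 pairs, chosen after their values were seen, are shown in the plot of within-library ratios. Since the pairs were picked for their values, these are a description without a test. Dvl2 counts per Dvl1 count went from 0.400 ± 0.039 to 0.747 ± 0.027 and Gsk3b counts per Gsk3a count from 0.468 ± 0.024 to 0.797 ± 0.033 (SD, n = 3). Fzd2 counts per Fzd6 count went the other way, from 0.208 ± 0.015 to 0.0782 ± 0.0060, as did Tcf7 counts per Tcf7l2 count, from 1.32 ± 0.20 to 0.503 ± 0.16. There were 0.0774 ± 0.0030 Apc counts per Ctnnb1 count in DMSO and 0.163 ± 0.0033 in P3FI-90. A ratio shows unequal change and not which gene of the pair changed. Unlike the scaling, the trend on gene length and GC content does enter these ratios. With it removed, log2 fold changes were 0.41 for Gsk3b and 0.29 for Gsk3a, against 0.81 and 0.04 before. They were 0.19 for Apc and -0.29 for Ctnnb1, against 0.77 and -0.31. The other pairs had 1.15 for Dvl2 and 0.30 for Dvl1, -1.28 for Fzd2 and -0.09 for Fzd6, and -0.92 for Tcf7 and 0.32 for Tcf7l2.

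**Figure D4:**
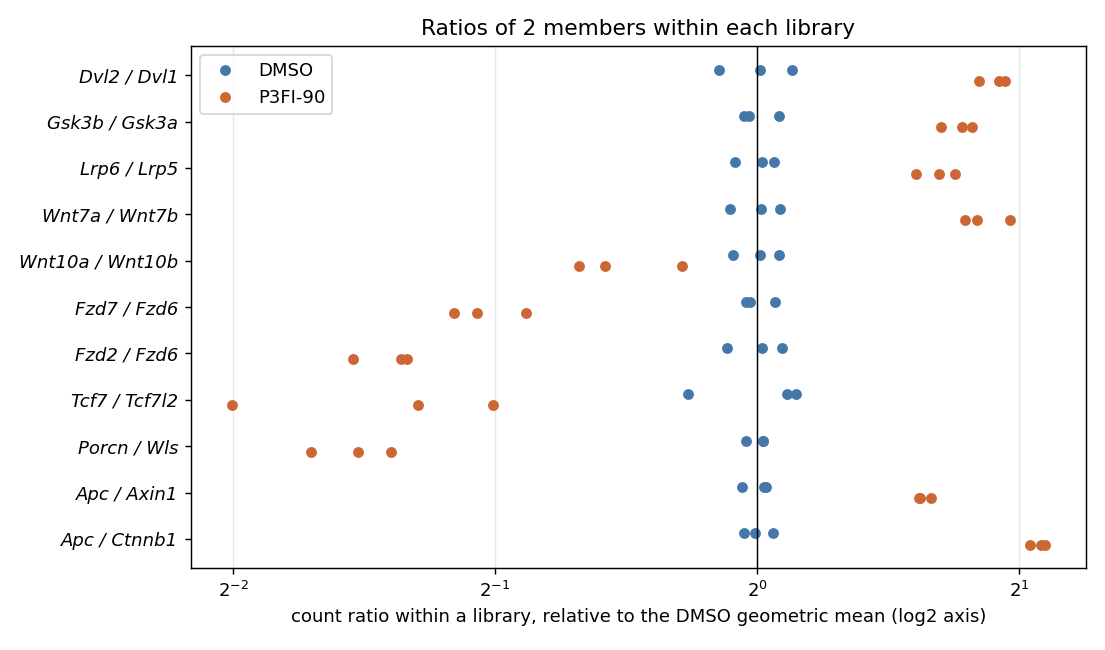
Ratio of the counts of pairs of Wnt pathway genes within each library, relative to the geometric mean of the 3 DMSO libraries, on a log2 axis with 1 dot per library. The P3FI-90 dots lie above the DMSO dots for pairs such as Dvl2 to Dvl1 and Apc to Ctnnb1 and below them for Fzd2 to Fzd6 and Porcn to Wls, in pairs picked for their values.

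Fold changes in these libraries moved with gene length. Length here was that of the longest annotated transcript of a gene. Over all genes tested the median log2 fold change was -0.27, -0.077, 0.053 and 0.28 from the shortest to the longest of 4 equal classes of this length. Over the members it was 0.61 for the 11 genes of the longest class. It was -0.15 for 16 genes of the next class and -0.26 for 12 genes of the class below that, with 1 gene in the shortest. In both classes between, the median of the members lay below that of all genes. With the trend on length and GC content removed, a setting chosen after the data were examined, all 29 called members kept their direction, and 9 moved by over 1.5 times. Those were Apc, Axin1, Gsk3b, Lgr6, Lrp6, Notum, Wnt10a, Wnt7b and Znrf3. Fzd3 (-0.63), Lrp5 (-0.31), Gsk3a (0.29), Fzd6 (-0.09) and Wnt2b (1.21) became called there.

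Beyond the 67 genes, 181 genes of 6 hand-written pathway lists were read from the same comparison. Of 139 tested, 61 were higher and 59 lower, and the median log2 fold change was 0.071, beside 39.9% and 39.4% called higher and lower among all genes. Among partners of the destruction complex, 13 of 27 tested genes rose and 10 fell (median 0.092). Tnks, a tankyrase that marks Axin for degradation, rose by 1.43 on the log2 scale, from 3660, 4050 and 4020 normalized counts to 10514, 10219 and 10955, and Usp34, a deubiquitinase of Axin, rose by 0.76, which was 0.18 with the length and GC trend removed. The phosphatase subunits Ppp2r1a and Ppp2r5c fell by 0.88 and 0.50. Among nuclear cofactors, 7 of 26 rose and 14 fell (median -0.22), with Ep300, an acetyltransferase, at 0.99 (0.60 with that trend removed) and the ATPases Ruvbl1, Ruvbl2 and Smarca4 at -0.93, -0.88 and -0.80.

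Genes of non-canonical signalling and planar polarity had 13 rises and 9 falls among 26 (median 0.10), with the calcium-dependent kinase Camk2d at 1.07, the GTPases Rac1 and Rhoa at -0.96 and -0.79 and the co-receptor Ptk7 at -0.64. Extracellular modulators had 6 rises and 6 falls among 12 (median 0.048). Igfbp4, a secreted binding protein that can inhibit Lrp6, fell from a mean of 42118 ± 1530 to 13610.3 ± 168 normalized counts (log2 fold change -1.63), and the membrane inhibitors Apcdd1 and Tpbg fell by 1.14 and 0.66, as did Adgra2, a co-activator of Wnt7 signalling, by 0.69. Among textbook target genes, 16 of 35 rose and 14 fell (median 0.17). The background for each of these lists was 39.9% of all genes called higher and 39.4% called lower.

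Of the targets, Ccnd1, the cyclin of early cell cycle entry, had 41882, 37740 and 41086 normalized counts in DMSO and 12431, 11648 and 11498 in P3FI-90, a log2 fold change of -1.76 (SE 0.042, edgeR adjusted p = 1.41e-13). Sox4 fell by 1.63 and Myc by 0.45, while Vegfa rose by 1.69 and Id2 by 2.04. Cd44, an adhesion receptor, was not called (log2 fold change 0.075, edgeR adjusted p = 0.0926), and its sign turned with the length and GC trend removed (-0.16). Among cadherin and catenin partners, which hold the membrane pool of β-catenin, 6 of 14 rose and 7 fell (median -0.28). Among all genes, 39.9% were called higher and 39.4% lower. The phosphatase Ptpn14 was at 1.67 and the scaffold Lin7c at 0.42 (0.23 with that trend removed). The catenin Ctnnd1 and the catenin-like Ctnnal1 were at -0.73 and -1.06.

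**Figure D5:**
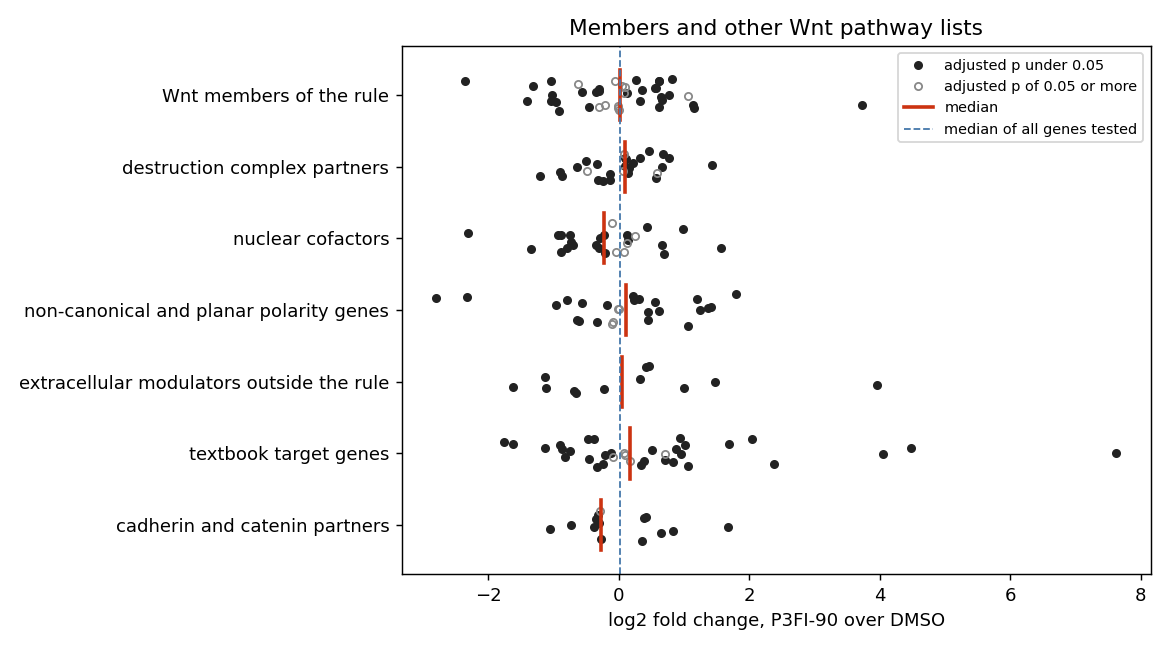
Log2 fold change of P3FI-90 over DMSO for each tested gene of the 67 Wnt pathway genes and of the 6 other pathway lists, 1 dot per gene, with a red line at each median and a dashed blue line at the median of all genes tested (0.013). Each list spreads to both sides of 0, with medians from -0.28 for cadherin and catenin partners to 0.17 for textbook target genes.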

How the data were processed

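RNA-seq of 4T1 cells treated with DMSO or P3FI-90 was analysed, with 3 libraries per group. The authors deposited whole-number read counts per gene without normalization. The submitters' processing notes name CASAVA, HISAT2, StringTie and build GRCm39. Their roles, the annotation, the counting tool and its use of strand are not given in the sources used here. The 285 rows of assembled transcripts (0.483% to 0.556% of counts) were left out.

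Counts were filtered with filterByExpr, normalized by TMM and tested two-sided with edgeR 4.0.16 (quasi-likelihood, Benjamini-Hochberg over 12288 genes) in R 4.3.3, without covariates. Exon lengths, transcript lengths and overlaps came from GENCODE M21 (GRCm38) and promoters from RefSeq. Pairs of libraries within a group differed beyond counting noise (chi-square per gene 5.50 to 8.41).

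The genes and lists were chosen with earlier results of these data known. Values per library are given for members at an adjusted p under 0.05 and an absolute log2 fold change of at least 1, for core pathway genes and for members below the filter with at least 10 counts. From each list at most 4 genes of smallest p are named, with Ccnd1, Myc, Cd44 and Kdm3b. Other genes named were chosen after their values were seen.

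On simulated counts for this comparison (12288 genes, 200 changed by a fold of 2) the test found 192 genes, and 7.25% of its calls were false. The changed genes were drawn from those with a mean above 1 CPM, in equal numbers up and down. In the data 79.3% of genes were called and fold changes moved with length, which the simulation did not copy. It therefore gives no error rate for these data or for low genes. The alternatives scaled by total counts, upper quartiles or the size factors of DESeq2, dropped the filter or asked for 10 counts per library, tested with DESeq2 1.42.0 or limma 3.58.1 (voom, and log2(CPM + 1)), and used the replicate number as a block. Others left out each library in turn and, added after the data were examined, removed a length and GC trend by splines with 4 degrees of freedom. A gene of the marker lists is not reported here, and other assays of the study were not analysed here.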

Additional observations from a re-analysis of the deposited data

How the results depend on the processing

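The 29 called members kept their direction in each of the 16 alternatives that tested them, and 25 kept the call in all of them, the exceptions being Fzd1, Notum, Tcf7l2 and Wnt5b. Of the 11 members not called, 8 changed sign in some alternative and 7 were called in some. The sign turned with a call for Lrp5 under total counts (0.195) and for Fzd6 with the length and GC trend removed (-0.0895). Outside the members, the sign turned with that trend removed for Cd44 (-0.163) and Kdm3b (-0.0545). The median log2 fold change of the members was 0.034 with DESeq2's size factors, 0.24 with total counts, -0.015 with upper quartiles, 0.28 without a filter, 0.081 with at least 10 counts in every library, 0.034 with DESeq2 and -0.047 with the trend removed, and 0.0073 to 0.043 when a library was left out, so its sign is not settled. Destruction complex partners had 5 lower genes with total counts and 8 higher with the trend removed, and nuclear cofactors 11 and 4 higher. The cause was not tested, except that total counts shift all genes up. For members below the filter, depth sets the limit. The bound for Dkk2 was 2.04-fold higher with P3FI-90 against a floor of 3 counts and 1.02-fold against 6. That bound took the P3FI-90 count as exact. All 7 counts of Dkk2 came from P3FI-90 replicate 1, so the bound rests on that library alone.

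With the replicate block, 16 members were higher and 12 lower, with a median of 0.023, and the only member whose call changed was Wnt5b (adjusted p = 0.0772). Among all genes, slightly fewer were called in each direction than without the block, where 39.9% were higher and 39.4% lower. Across genes, libraries of the same number deviated from their groups with correlations of -0.021, 0.015 and 0.0049, and not every library correlated best with its own number, so the numbers were not treated as pairs.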

Other observations

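Nfatc4 and Fuz, of the non-canonical and planar polarity list, were chosen after their values were seen. Nfatc4, a calcium-dependent transcription factor of non-canonical signalling, had 39.5, 53.0 and 28.6 normalized counts in DMSO and 4.68, 3.60 and 8.82 in P3FI-90. Its relatives Nfatc1, Nfatc2 and Nfatc3 were called higher, with log2 fold changes of 0.44, 0.62 and 0.315. Fuz, a planar polarity effector needed for cilia, had a mean of 302 ± 81.9 in DMSO and 60.04 ± 8.85 in P3FI-90 (SD, n = 3).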
